A study of Caenorhabditis elegans with 24 samples.

Results

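The astacin metalloprotease genes of *C. elegans* were followed by mRNA-seq in L1 larvae that were fed, starved, or given food together with ivermectin. The family was taken by symbol, as every gene named nas with a number together with hch-1, dpy-31 and toh-1. This gave 41 of the 44968 gene rows of the count files, which carry 40 symbols because nas-2 is the name of 2 rows, F56A4.1 and Y19D10A.6. Of these, 36 had more than 1 CPM (a gene's reads per 1000000 reads on genes) in at least 4 of 24 libraries and were among the 19050 genes tested. The other 5 rows, which are both nas-2 rows, nas-16, nas-18 and nas-20, did not pass and were not tested.

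Astacins are secreted or membrane-bound proteases that hold a zinc ion in the active site, and they are usually made as inactive precursors. Nematodes carry many more of them than vertebrates do, where the family includes meprins and the procollagen C-proteinase BMP-1. In the worm they are known for roles in hatching, in digestion within the pharynx and gut, in the processing of cuticle collagen and in shedding the old cuticle at each molt. The symbols are grouped here by domain layout into subgroups I to VI, and toh-1 and nas-40 are left unassigned. Subgroup I has 4 of 6 rows measured, II has 10 of 10, III has 11 of 14, IV has 2 of 2, V has 6 of 6 and VI has 1 of 1.

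All larvae were of strain LRB269, which carries the alleles vu47 of avr-14, ok321 of glc-3, vu227 of avr-15 and pk54 of glc-1. Its transgene dukIs10 puts avr-15 and mCherry under the myo-2 promoter and GFP under the hlh-8 promoter. It lacks glutamate-gated chloride channels on which ivermectin acts, and avr-15 is restored only in pharyngeal muscle, so that the drug acts on the pharynx. Whether larvae ate was not measured in these files. Without ivermectin, larvae were fed *E. coli* HB101 at 25 mg/mL (F) or starved (S) for 1 h. With 5 ng/mL ivermectin, they were given the same food (IvF) or none (IvS) for 1 h or 24 h. Cultures were set up from bleached embryos with the drug, or with its solvent DMSO, and food was added 24 h later, when the larvae had hatched and arrested. All larvae, fed ones too, had therefore been without food before the exposure. Each of the 6 conditions has 4 libraries, described as biological replicates. Libraries without ivermectin are named by replicate, and those with it by their titles (IF for IvF and I for IvS, then time and replicate number).

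Reads on genes numbered 8690378 to 14139935 in the 8 libraries without ivermectin and 14498061 to 19448998 in the 16 with it. Reads outside annotated features made up 2.67% to 3.71% of aligned reads without ivermectin and 4.39% to 11.3% with it, and libraries with and without the drug do not overlap in either measure. The study's supplementary notes mention 2 batches without naming their libraries, so the drug and a batch cannot be told apart. In bulk larvae, fewer cells of a type and less RNA per cell cannot be told apart either. Markers of hypodermis, the tissue that makes the cuticle, were present in every condition at a summed 105 to 178 CPM over 6 genes. Markers of early embryos, a stage an L1 culture should not hold, summed to 40.4–68.2 CPM over 7 measured genes of 10 in F, 10.2–32.7 in S, 24.0–68.4 in IvF and 20.8–30.1 in IvS at 1 h.

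The family was carried by a few genes. Summed over the 41 rows, it amounted to 262–327 CPM in F, 234–322 in S, 254–413 in IvF and 291–444 in IvS at 1 h, and to 247–394 in IvF and 259–288 in IvS at 24 h. These ranges overlap, except those of IvS at 1 h and at 24 h. The 3 members with the most reads held 45.1% to 51.2% of the family in F and 31.4% to 38.6% in IvF at 24 h. Per kilobase of exon, the highest level averaged over the 6 conditions was that of nas-9, at 26.0 CPM per kb, followed by dpy-31 at 25.4. Next came toh-1 at 16.6, nas-11 at 15.4, nas-31 at 13 and nas-25 at 12.4 CPM per kb, then nas-7 at 6.94. Of these, nas-9, nas-11 and nas-7 belong to subgroup II. Many levels were low, and 16 of the 41 rows averaged under 1 CPM per kb. The order changed with the condition, as in F, where dpy-31 led at 46.0 and nas-9 followed at 14.7 CPM per kb.

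**Figure D1:**
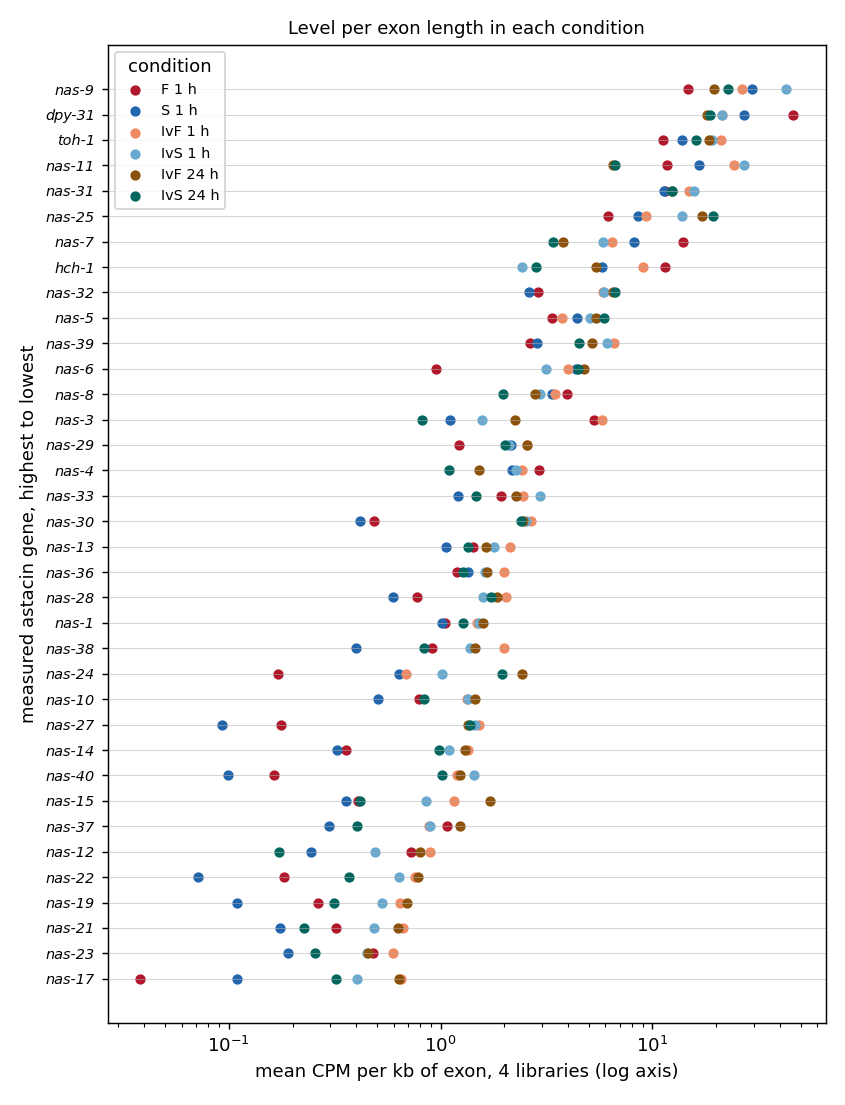
Mean level of the 36 measured astacin genes per kilobase of exon, on a log axis, in each of the 6 conditions (points, each a mean of 4 libraries), with genes in order of their average. The genes nas-9 and dpy-31 lead at 26.0 and 25.4 CPM per kb. The points of nas-17, nas-24, nas-27 and nas-40 spread 17.1, 14.1, 16.3 and 14.4 times between the lowest and the highest condition. Their lowest condition means were only 0.0382 to 0.171 CPM per kb.

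Feeding for 1 h raised some members and lowered more. Of the 36 measured members, 10 passed the thresholds in F against S (adjusted p below 0.05, with a log2 fold change beyond 0.5 either way) and 3 were higher and 7 lower in F. That is 27.8% of the members, beside 29.0% of all genes tested, so the family was called about as often as any gene. Of all genes 13.6% were higher and 15.4% lower. The median log2 fold change was 0.12 over the measured members and −0.07 over all genes tested. Of the 10, the CPM of F and S libraries did not overlap for 6, and did for 4. This was not counted over all genes tested. CPM here are not scaled by the factors (TMM) that the tests use. These ran from 0.621 in S replicate 3 to 1.297 in IF_24hr_186, so overlap can differ after scaling.

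The higher members include dpy-31, which encodes a procollagen C-proteinase that processes the cuticle collagen SQT-3 and is needed for a normal body shape. Its level was 92.7, 95.3, 98.7 and 95.8 CPM in the 4 F libraries and 56.9, 64.4, 48.1 and 56.2 CPM in the S libraries. All F libraries lay above all S libraries, and above every library with ivermectin, whose highest was 53.0 CPM. The log2 fold change of dpy-31 was 0.57 ± 0.13 (SE, n = 4 and 4, adjusted p = 0.00184), a 1.48-fold rise. In IvF against IvS at 1 h it was −0.01 ± 0.13 (adjusted p = 1.00), from 32.4–53.0 against 40.3–51.4 CPM. The difference between these food responses was 0.58 ± 0.19 with an adjusted p of 0.0520, so it missed the threshold.

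The same direction was seen for nas-3, a subgroup I member with no well-known role. It stood at 8.21, 8.52, 5.19 and 1.90 CPM in F and at 1.56, 0.859, 1.74 and 0.801 CPM in S. The lowest F library lay just above the highest S library in CPM, and the F libraries varied widely, holding 20 to 92 reads. After TMM scaling the groups overlap, with F replicate 4 (factor 0.958) below S replicate 1 (factor 0.748) and S replicate 3 (factor 0.621). The rise was 1.99 ± 0.54 on the log2 scale (adjusted p = 0.00598). The third, nas-7, is expressed in the pharynx and, with nas-6, takes part in forming the grinder, the pharyngeal plate that crushes bacteria. Its F libraries, at 14.3, 17.3, 19.3 and 24.7 CPM, all exceeded its S libraries, at 13.4, 13.9, 7.30 and 9.38 CPM. After TMM scaling the groups overlap, with F replicate 1 (factor 0.828) below S replicate 1 (factor 0.748). The log2 fold change of nas-7 was 0.58 ± 0.18 (adjusted p = 0.0159), and without S replicate 4 or F replicate 4 it no longer passed.

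The largest fall was that of nas-6, the partner of nas-7 in the grinder. Its levels were 0.981, 1.84, 1.06 and 1.71 CPM in F, which were 11 to 18 reads, and 4.17, 4.51, 3.15 and 13.7 CPM in S. Every S library was above every F library, with S replicate 4 far above the other S libraries. The log2 fold change was −2.32 ± 0.30 (adjusted p = 1.75e-06), and −1.75 was the smallest change when single libraries were left out. With ivermectin, nas-6 stayed between 3.53 and 7.85 CPM in all 16 libraries and did not pass between IvF and IvS at 1 h (0.33 ± 0.26, adjusted p = 0.774). The food response of nas-6 differed between the drug conditions, with an interaction of −2.64 ± 0.40 on the log2 scale (adjusted p = 9.74e-05). Thus nas-6 fell and nas-7 rose on feeding. Pharyngeal muscle genes as a list gave 2 of 5 lower in F (myo-1 and tnc-2) and none higher, with summed levels of 1051–1276 CPM in F and 1339–1858 in S. Whether this bears on nas-6 was not tested.

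The most abundant subgroup II genes fell too. The gene nas-9 stood at 18.1, 24.4, 29.98 and 33.6 CPM in F and at 35.2, 48.3, 44.7 and 85.6 CPM in S, without overlap. Its log2 fold change was −1.19 ± 0.20 (adjusted p = 4.62e-05). For nas-11, F had 17.3, 23.7, 23.2 and 19.1 CPM and S had 22.0, 36.6, 25.2 and 33.6 CPM, so the lowest S library lay below the 2 highest F libraries. This overlap is in unscaled CPM, and after TMM scaling every S library lay above every F library. The change of nas-11 was −0.68 ± 0.22 (adjusted p = 0.0227) and was lost without F replicate 1 or 4 or S replicate 2 or 3. Exons of nas-11 share 9.17% of their length with smf-2 on the other strand, and the libraries do not record strand.

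In subgroup III, 3 of 11 measured members fell and none rose, beside 15.4% lower and 13.6% higher of all genes tested. The gene nas-29 was at 2.14, 2.19, 3.08 and 2.38 CPM in F and at 4.53, 5.05, 3.65 and 4.12 CPM in S, a difference of −1.02 ± 0.25 (adjusted p = 0.00252) without overlap. The level of nas-25 was 7.14, 8.06, 7.69 and 9.98 CPM in F and 11.6, 13.6, 10.7 and 9.73 CPM in S, where F replicate 4 exceeded S replicate 4. After TMM scaling S replicate 4 lay just above F replicate 4. The change of nas-25 was −0.69 ± 0.20 (adjusted p = 0.00935). The low gene nas-24 had 0 to 5 reads in F and 2 to 23 in S, with 2.63 CPM in S replicate 4 and 0.141 to 0.664 CPM in the other S libraries. Its change of −2.01 ± 0.76 (adjusted p = 0.0474) became −0.97 without that library and was lost in 17 of the 24 fits that left out a library.

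The last of the 10, toh-1, is named as a tolloid homolog. It stood at 14.8, 17.6, 21.4 and 17.4 CPM in F and at 22.4, 24.7, 20.4 and 20.5 CPM in S, where F replicate 3 exceeded S replicates 3 and 4. After TMM scaling F replicate 3 exceeded only S replicate 4. The log2 fold change of toh-1, −0.51 ± 0.13 (adjusted p = 0.00315), lay close to the fold threshold and was lost in 12 of the 24 fits without a library. With ivermectin the food response of toh-1 was 0.13 ± 0.12, and the interaction was −0.64 ± 0.18 (adjusted p = 0.0210). With nas-6 and nas-29, toh-1 was 1 of 3 members whose interaction of food and ivermectin passed, each negative, 8.33% of the members beside 10.3% of all genes (5.31% higher and 5.03% lower).

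**Figure D2:**
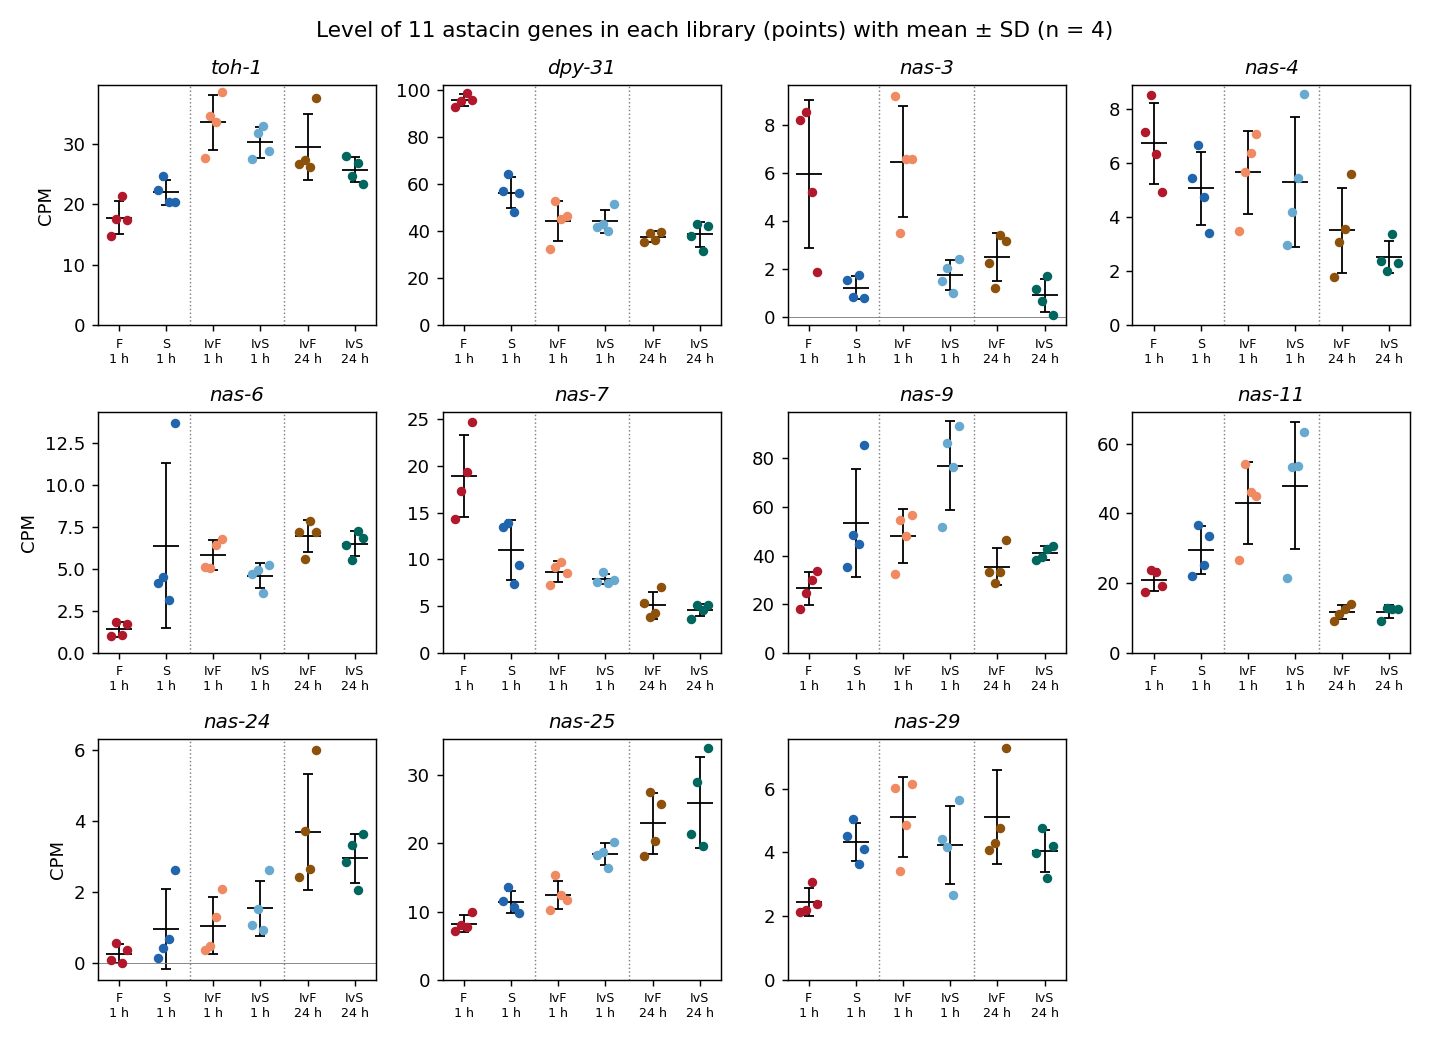
Level in CPM (linear axes) of the 11 astacin genes called in a comparison of food or time or in an interaction, with points for the 4 libraries of each condition and bars for mean ± SD. The F libraries of dpy-31 sit between 92.7 and 98.7 CPM above all other libraries, those of nas-6 between 0.981 and 1.84 CPM below all others, and nas-11 falls in IvF and IvS between 1 h and 24 h.

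Members with a known part in hatching and molting did not pass on feeding. The hatching enzyme gene hch-1, also needed for migration of Q neuroblasts, was at 17.5–30.8 CPM in F and 1.83–20.5 CPM in S (0.91 ± 0.60, adjusted p = 0.272). The highest early embryo sums also stood in F and IvF at 1 h, where hch-1 was highest, and their part in its level was not tested. The genes nas-36 and nas-37 encode proteases that help to open the old cuticle at molting, and nas-38 acts in the sleep-like state around the molt. For nas-37, F libraries spanned 1.43–3.57 CPM and S libraries 0.322–1.08 CPM without overlap, yet its change of 1.58 ± 0.66 missed the threshold (adjusted p = 0.0701). The changes were −0.38 ± 0.21 for nas-36 (adjusted p = 0.175) and 1.04 ± 0.56 for nas-38 (adjusted p = 0.173).

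Other genes of molting and of cuticle collagen were examined as a list of 39, of which 38 were measured. On feeding, 5 of 38 were higher and 3 lower, beside 13.6% and 15.4% of all genes, with a median log2 fold change of 0.69 beside −0.07 for all genes tested. The higher ones include the nuclear receptor gene nhr-23, a regulator of molting (0.78 ± 0.22, adjusted p = 0.00683), and mlt-10 (1.42 ± 0.25, adjusted p = 7.15e-05). The subunits of the collagen-modifying prolyl 4-hydroxylase rose as well, with dpy-18 at 1.25 ± 0.17, phy-2 at 1.53 ± 0.15 and pdi-2 at 1.15 ± 0.15 on the log2 scale. These enzymes act on collagen chains in the secretory pathway, before proteinases such as DPY-31 trim them. Its substrate gene sqt-3 did not pass, at 23.5–43.1 CPM in F and 4.48–24.6 CPM in S (adjusted p = 0.200). The genes mlt-7, bli-3 and dpy-5 were lower in F. For mlt-7, a peroxidase gene of the cuticle, the change was −0.92 ± 0.18.

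Between larvae given food with ivermectin and those given none, 2 of the 36 members differed at 1 h. In IvF against IvS, nas-3 was higher and nas-9 lower, 5.56% of the members beside 5.56% of all genes tested (3.27% higher and 2.29% lower). The level of nas-3 was 9.20, 3.52, 6.59 and 6.58 CPM in IvF and 1.49, 2.06, 1.00 and 2.41 CPM in IvS, without overlap. Its rise of 1.92 ± 0.51 (adjusted p = 0.0227) was close to that on feeding, and the difference between them was 0.06 ± 0.74 (adjusted p = 0.983), an error too wide to show that they are alike. It no longer passed without IF_1hr_181, I_1hr_181, I_1hr_183 or I_1hr_185. For nas-9, IvF had 32.2, 54.6, 48.3 and 56.7 CPM and IvS had 51.7, 86.4, 76.6 and 93.5 CPM. In unscaled CPM the groups overlap through I_1hr_181, which lies below IF_1hr_183 and IF_1hr_186. After TMM scaling it lies below IF_1hr_183 only. The change of nas-9 was −0.71 ± 0.19 (adjusted p = 0.0277), and it no longer passed in 6 of the 24 fits without a library, with IF_1hr_181, IF_1hr_185, IF_1hr_186, I_1hr_183, I_1hr_185 or I_1hr_186 left out. Without the 4 libraries whose titles end in _186, nas-3 passed and nas-9 did not.

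Beyond these, hch-1 was at 6.32, 10.6, 35.2 and 17.9 CPM in IvF and at 4.54, 3.76, 6.07 and 4.35 CPM in IvS. All IvF libraries exceeded all IvS libraries, but the change of 1.81 ± 0.62 missed the threshold (adjusted p = 0.102). The values of nas-25 were −0.57 ± 0.19 with an adjusted p of 0.0805. In the list of molting and cuticle genes, 6 of 38 were higher and 1 lower in IvF at 1 h, beside 3.27% and 2.29% of all genes, with a median log2 fold change of 0.44 beside 0.02. At 24 h none of the 38 was higher or lower, with a median of 0.57 beside −0.01. The higher ones include dpy-18 (0.67 ± 0.17, adjusted p = 0.0141) and phy-2 (0.74 ± 0.14, adjusted p = 0.00170). For phy-2 and pdi-2 the interaction of food and ivermectin passed, at 0.80 ± 0.20 and 1.05 ± 0.21.

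At 24 h none of the 36 members passed between IvF and IvS with edgeR's quasi-likelihood test, beside 0.777% of all genes tested. At an unadjusted p under 0.05 there were 4, and edgeR's exact test and DESeq2 also gave 0. These 4 were nas-3 (1.36 ± 0.54, adjusted p = 0.513), nas-12 (1.99 ± 0.70, adjusted p = 0.359), nas-15 (1.93 ± 0.67, adjusted p = 0.351) and nas-37 (1.46 ± 0.61, adjusted p = 0.595). The level of nas-3 was 2.27, 1.22, 3.40 and 3.17 CPM in IvF and 1.16, 0.674, 1.71 and 0.119 CPM in IvS. Its groups overlap, and no member had an interaction of food and time that passed, beside 0.971% of all genes (0.661% higher and 0.310% lower), with 0 of 36 also at an unadjusted p under 0.05.

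Time with ivermectin moved 6 members in all, with 4 called in IvF and 4 in IvS and nas-7 and nas-11 in both. In IvF at 24 h against 1 h, 2 were higher and 2 lower, 11.1% of the members beside 9.92% of all genes (4.20% higher and 5.72% lower). In IvS, all 4 were lower, again 11.1%, beside 5.24% of all genes either way and 3.17% lower. The medians of the members were −0.15 in IvF and −0.37 in IvS, and those of all genes −0.01 and −0.02.

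Same-numbered IvF libraries at 1 h and 24 h deviated together, so the replicate number was also fitted as a block. With the block in the fit of all 24 libraries, 6 members were called over time in IvF, the same 4 with nas-3 (−1.40 ± 0.45, adjusted p = 0.0375) and nas-4 (−0.77 ± 0.20, adjusted p = 0.0121) lower, beside 2495 of all 19050 genes tested. With the block in a fit of the 8 IvF libraries alone, 8 were called, beside 2857 of the 19050. Those 8 were the same 6 with hch-1 lower (−0.71 ± 0.21, adjusted p = 0.0346) and nas-5 higher (0.52 ± 0.18, adjusted p = 0.0421). Without the block, these 4 additional genes had adjusted p of 0.0663 (nas-3), 0.118 (nas-4), 0.561 (hch-1) and 0.178 (nas-5). The libraries of nas-3 did not overlap between the times, and those of the other three did.

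The largest of these falls was in nas-11. Its IvF libraries were at 26.6, 54.3, 46.2 and 44.9 CPM at 1 h and at 9.15, 11, 12.5 and 13.9 CPM at 24 h. Its IvS libraries were at 21.5, 53.5, 53.7 and 63.4 CPM at 1 h and at 9.08, 12.8, 12.7 and 12.5 CPM at 24 h. No library at 24 h reached any at 1 h. The changes of nas-11 were −1.91 ± 0.23 in IvF (adjusted p = 4.02e-06) and −1.95 ± 0.23 in IvS (adjusted p = 6.33e-06), and both held in all alternatives that were run.

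Falls were also called for nas-7 in both. In IvF it went from 7.20, 9.20, 9.76 and 8.53 CPM to 5.27, 3.78, 4.23 and 7.01 CPM (−0.82 ± 0.19, adjusted p = 0.00459). In IvS it went from 7.53, 8.67, 7.47 and 7.79 CPM to 3.61, 5.06, 4.59 and 5.05 CPM (−0.72 ± 0.19, adjusted p = 0.0234). The call in IvS was lost in 4 of 24 fits without a library, with I_1hr_183, I_1hr_185, I_24hr_181 or I_24hr_185 left out, and without a filter on low counts, with adjusted p up to 0.0917. Pharyngeal muscle genes were lower at 24 h too, 2 of 5 in IvF and 4 of 5 in IvS, and their sum went from 5025–6355 to 2237–4396 CPM and from 5144–6499 to 2410–3213 CPM. Pharyngeal gland genes were lower for 2 of 7 and 3 of 7. Intestine genes were lower for 3 of 6 and higher for 1 (ges-1) in IvF, where their sum went from 1798–2273 to 595–794 CPM, and lower for 2 of 6 in IvS, from 1317–2020 to 573–698 CPM. Body wall muscle genes were lower for 2 of 4 in both, from 7489–10176 to 4936–6269 CPM in IvF and from 7895–11454 to 5326–6216 CPM in IvS. Hypodermis markers gave 0 of 6 in both. The part of these tissues in the level of nas-7 was not tested.

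In IvS alone, nas-9 and nas-4 passed without the block. The level of nas-9 went from 51.7, 86.4, 76.6 and 93.5 CPM to 38.1, 39.3, 42.9 and 43.9 CPM (−0.84 ± 0.19, adjusted p = 0.00925) without overlap, though it did not pass without the 4 libraries ending in _186. That of nas-4 went from 2.99, 4.18, 5.47 and 8.55 CPM to 2.38, 2.02, 3.37 and 2.32 CPM (−1.0 ± 0.29, adjusted p = 0.0453). The groups of nas-4 overlap, its call was lost in 13 of 24 fits without a library, and 18.8% of its exon length is shared with C05D11.5.

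In IvF alone, nas-25 and nas-24 rose with time without the block. The level of nas-25 was 10.3, 15.3, 12.4 and 11.7 CPM at 1 h and 18.1, 27.6, 20.4 and 25.8 CPM at 24 h (0.84 ± 0.19, adjusted p = 0.00377). That of nas-24 was 0.360, 0.473, 1.30 and 2.07 CPM at 1 h and 2.43, 3.72, 2.63 and 5.99 CPM at 24 h (1.84 ± 0.58, adjusted p = 0.0429), and its call was lost in 14 of 24 fits without a library. Neither gene overlapped between the times. For the 4 genes called in a single food condition, that IvF and IvS differ over time was not shown, since no interaction with time passed.

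**Figure D3:**
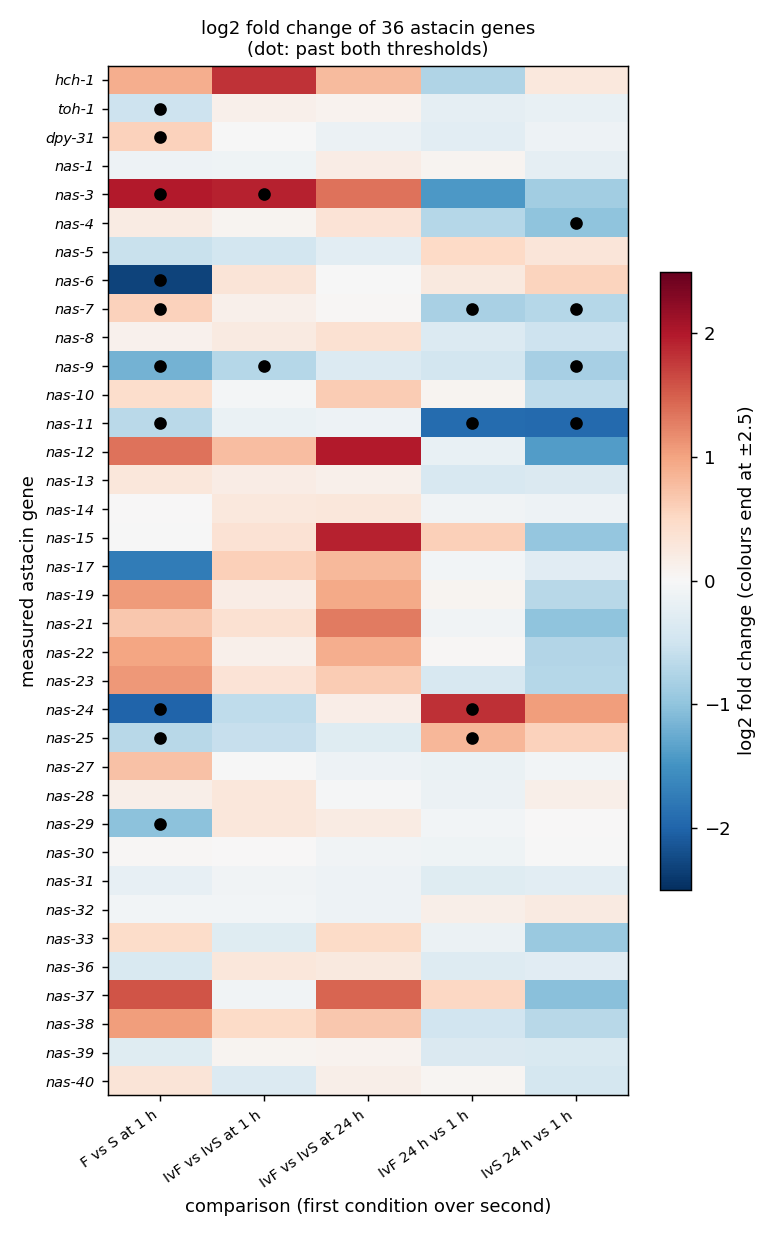
Log2 fold change (colour) of the 36 measured astacin genes (rows) in 5 comparisons (columns), red for higher and blue for lower in the first condition named, with a dot where both thresholds were passed. Dots number 10, 2, 0, 4 and 4 from left to right, and nas-3 and nas-9 carry both dots of the second column.

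Larvae of the same food state and time with and without ivermectin differed in more members, though in a smaller share than of all genes tested. Of the 36 members, 16 were called in F against IvF, 44.4% beside 60.8% of all genes tested, with 2 higher and 14 lower without the drug. Of all genes 27.7% were higher and 33.1% lower there. In S against IvS, 14 were called, 38.9% beside 57.3% (29.1% higher and 28.2% lower), with 5 higher and 9 lower. The medians of the members were −0.60 and −0.45 and those of all genes −0.13 and −0.04. The lower members include nas-17 in F against IvF, and nas-27 and nas-40 in both comparisons. Their means without the drug were 0.0528 to 0.287 CPM. They passed the filter of 1 CPM only through libraries with ivermectin, so their direction was partly fixed by the filter. Drug and batch cannot be told apart here.

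Markers of several tissues differed between the same libraries. Body wall muscle genes were lower without the drug for 4 of 4 in both food states, at 2283–3022 CPM in F against 7489–10176 in IvF and 1958–3848 in S against 7895–11454 in IvS. Pharyngeal muscle genes were lower for 2 of 5 (myo-1 and myo-2) and higher for 1 (tnc-2) in both, with sums of 1051–1276 CPM in F against 5025–6355 in IvF and 1339–1858 in S against 5144–6499 in IvS. Pharyngeal gland genes were higher for 4 of 7 in both, with 1 (hlh-6) lower in F against IvF. Hypodermis genes were higher for 1 (elt-3) and lower for 1 (rol-6) of 6 in both. Intestine genes were lower for 2 of 6 in both, with 1 (elt-7) higher in S against IvS. Neuron genes were higher for 2 of 5 in F and 3 of 5 in S, with 1 (unc-13) lower in both. Vitellogenin genes, markers of adult hermaphrodites, were higher for 3 of 5 in F, at 51.2–65.3 against 5.19–34.7 CPM, and for 5 of 5 in S, at 44.2–102 against 5.67–22.8 CPM. Of the 38 molting and cuticle genes, 6 were higher and 16 lower in F against IvF, beside 27.7% and 33.1% of all genes. In S against IvS 4 were higher and 17 lower, beside 29.1% and 28.2%. The part of these tissues in the levels of the members was not tested.

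Both dpy-31 and nas-7 were higher without the drug in each food state. The values for dpy-31 were 1.40 ± 0.14 for the fed pair, F against IvF, and 0.82 ± 0.13 for the starved pair, S against IvS. For nas-7 they were 1.39 ± 0.18 and 0.93 ± 0.19. The gene nas-6 was lower in F than in IvF (−1.79 ± 0.30, adjusted p = 1.79e-05) and higher in S than in IvS (0.85 ± 0.27, adjusted p = 0.00830). The latter rested on S replicate 4, without which it was 0.24 and did not pass. For nas-29, F against IvF gave −0.79 ± 0.24 (adjusted p = 0.00691), S against IvS did not pass, and the interaction was −1.30 ± 0.34 (adjusted p = 0.0132).

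Among members lower without the drug in both food states were nas-27, nas-30, nas-32 and nas-39, which stayed past the thresholds in all alternatives that tested them, except nas-39 in S against IvS with reads outside features as a covariate. The gene nas-39 encodes a protein of the tolloid and BMP-1 type, and its F libraries were at 8.30–9.78 CPM and its IvF libraries at 1 h at 16.2–26.99 CPM (−1.01 ± 0.15, adjusted p = 2.99e-06). The level of nas-30 was 0.535–1.96 CPM in F, 0.830–1.83 in S, 2.83–11.7 in IvF and 4.61–9.24 in IvS at 1 h. Its log2 fold changes were −2.12 ± 0.39 and −2.14 ± 0.39, and −1.12 and −1.21 with reads outside features as a covariate. With 0 to 5 reads in F and 0 to 3 in S, nas-27 was near the limit of counting without the drug and at 0.926–4.27 CPM in IvF and 1.87–2.93 in IvS at 1 h. Its log2 fold changes were −2.80 and −3.56, and −1.75 and −2.59 with that covariate. The row nas-40, a pseudogene in the WBcel235 annotation, had 0 to 3 reads in F and 0 to 4 in S, and 6 to 38 in IvF at 1 h. Both nas-27 and nas-40 passed the filter only through libraries with ivermectin, so being lower without it was partly fixed by the filter.

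The low members were set beside the share of reads outside features. Summed over 9 rows, the 2 of nas-2 and nas-16 to nas-22, chosen after their values were seen, the level was 0.760–2.99 CPM in F and 0.778–1.83 in S. With ivermectin it ranged from 0.506 to 15.9 CPM. In each of the 4 conditions with ivermectin, the library with the highest share of reads outside features had the highest sum. So it was in F, while in S the highest sum was in replicate 3 (1.83 CPM) and the highest share in replicate 4 (3.53%). The library IF_24hr_186 had 11.3% of its reads outside features and a sum of 15.9 CPM, and the other 3 libraries of its condition had 5.30% to 6.52% and 1.65 to 5.10 CPM. In IvS at 24 h, I_24hr_186 had the lowest share, 4.39%, and a sum of 1.01 CPM, and I_24hr_185 had 8.38% and 6.52 CPM. The library IF_24hr_186 held the highest value of 20 of the 41 rows. With this share as a covariate, F against IvF lost nas-9, nas-14, nas-17, nas-24, nas-28 and nas-40, and S against IvS lost nas-8, nas-14, nas-28, nas-33, nas-38, nas-39 and nas-40. Every library with the drug has a higher share than any library without it, so share and drug cannot be told apart in these comparisons.

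**Figure D4:**
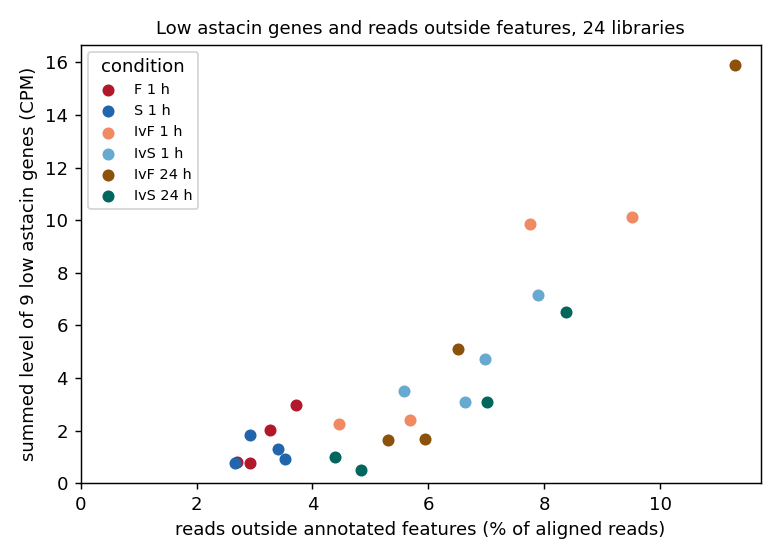
Summed level in CPM of 9 low astacin rows (vertical axis) against the share of aligned reads outside annotated features in percent (horizontal axis), 1 point per library, coloured by condition. The libraries without ivermectin lie at or below 3.71% and 2.99 CPM, and IF_24hr_186 lies at 11.3% and 15.9 CPM.

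Over all tests, 11 measured members passed in a comparison of food or time or in an interaction, 12 only between libraries with and without ivermectin, and 13 in none. How all genes tested divide in this way was not counted, so the division is not a trait of the family. The 13 members that passed in none are nas-1, nas-5, nas-10, nas-12, nas-13, nas-15, nas-19, nas-21, nas-22, nas-23, nas-31, nas-36 and nas-37. Among them nas-31 of subgroup IV was abundant and varied little, at 21.4–28.0 CPM in F, 21.4–29.3 in S, 25.3–38.6 in IvF and 28.5–39.1 in IvS at 1 h. Its highest condition mean in unscaled CPM, in IvS at 1 h, was 1.39 times its lowest, in S, the smallest such ratio in the family. With TMM scaling, S against IvS gave a log2 fold change of 0.00 for nas-31.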

How the data were processed

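The authors mapped 24 mRNA-seq libraries (non-directional kit) with Bowtie (version 1.1.2 in the submitters' processing notes) to WS210, with WS220 transcripts, and counted reads with HTSeq. The deposited counts are whole numbers of reads per gene, without normalization. The 5 HTSeq total rows name no gene and were left out of tests and library sizes (outside features 2.67% to 11.3% and ambiguous 2.97% to 10.2% of aligned reads, 77.9% to 85.3% of reads aligned). Names, exon lengths and overlaps came from a WBcel235 annotation, which holds 44443 of 44968 identifiers. As the builds differ, no position is given.

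CPM was computed from the deposited counts by library total, without scaling factors. Genes over 1 CPM in at least 4 libraries (19050) were tested in R 4.3.3 with edgeR 4.0.16 (TMM, robust quasi-likelihood F test, limma 3.58.1), in 1 fit of 6 group means over 24 libraries. The method was tested on simulated counts. P was adjusted by Benjamini-Hochberg over all genes tested. Called genes had an adjusted p under 0.05 and changed by over 0.5 on the log2 scale. Errors are SE. The study's exact test was run as an alternative, beside DESeq2 1.42.0, its size factors in edgeR, no filter, a mean of at least 5 CPM, a replicate block, only the groups compared, a covariate for reads outside features, and leaving out each library.

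Described in full are measured members called in a comparison of food or time or in an interaction, and others by count and range. Members, lists and tests were chosen with earlier results of these data known. The ivermectin dose is 5 ng/mL in the labels and in the methods for sequencing, while a higher one stands in the paper's general methods for this strain. Deviations of same-numbered libraries from their group means correlated in all 4 pairs of IvF at 1 h and 24 h (r from 0.275 to 0.816, each over 0.1). The labels name no shared culture, so this pairing comes from the data. The blocked values are given beside the results over time in IvF. No libraries of a condition agreed within sampling noise (lowest chi-square per gene 5.19). Promoter and protein sequences were not analysed here.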

Additional observations from a re-analysis of the deposited data

Results flagged for a closer look

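Single libraries stood apart from the other 3 of their condition in 3 of 66 sets of 4 libraries examined for the 11 genes described in full, where chance gives about 1 in 20. For toh-1, the library IF_24hr_186 was at 37.6 CPM and the others at 26.2 to 27.4 CPM. For nas-6, S replicate 4 was at 13.7 CPM and the others at 3.15 to 4.51 CPM. For nas-11, I_24hr_181 was at 9.08 CPM and the others at 12.5 to 12.8 CPM.

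The response to food at 1 h differed between larvae without and with ivermectin for 3 members by the interaction term, beside 10.3% of all genes tested. The interaction was −2.64 on the log2 scale for nas-6, −1.30 for nas-29 and −0.64 for toh-1, each more negative without the drug. Without S replicate 3 or I_1hr_186 the interaction of toh-1 no longer passed.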

How the results depend on the processing

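Of 53 calls of a member in a comparison, 27 stayed past the thresholds under all alternatives that tested the gene. Of 1739 values under alternatives, 1569 kept direction and side of the threshold, 170 kept direction only and 0 reversed. With 1 library left out, members called numbered 6 to 10 for feeding (F and S), 0 to 3 in IvF against IvS at 1 h and 0 to 0 at 24 h, 3 to 5 over time in IvF, 2 to 7 over time in IvS, 13 to 18 between F and IvF, 9 to 15 between S and IvS, 2 to 4 for the interaction with ivermectin and 0 to 0 for that with time. Over all genes tested these fits called 26.7% to 29.6% for feeding, 3.75% to 7.02% in IvF against IvS at 1 h and 0.541% to 1.06% at 24 h. Over time they called 7.72% to 12.7% in IvF and 3.08% to 7.61% in IvS. Between libraries with and without ivermectin they called 55.2% to 61.7% (F against IvF) and 50.1% to 58.0% (S against IvS). The interactions gave 8.36% to 13.6% with ivermectin and 0.651% to 1.77% with time. The lowest count of members in F against S came without F replicate 4. With a mean of at least 5 CPM, fewer genes were tested, and 10 members were called in F against IvF while S against IvS gave 6. Of all genes tested there, 62.2% and 61.3% were called. With reads outside features as a covariate, 9 were called in S against IvS, beside 47.8% of all genes. Without a filter, 2 were called over time in IvS, beside 1.94% of all genes. In an alternative chosen after seeing the data, the covariate among libraries with ivermectin gave 7 over time in IvF and 8 in IvS. Of all genes it called 16.7% and 10.1%. Leaving out the 4 libraries whose titles end in _186 was also chosen after seeing the data. It gave 1 in IvF against IvS at 1 h and 2 over time in IvS, beside 2.95% and 2.32% of all genes. A replicate block in the 8 IvF libraries alone, chosen likewise, gave 8 over time in IvF, beside 2857 of the 19050 genes tested. Why the covariate and the missing filter moved these counts was not tested. DESeq2's size factors moved the median of all genes from −0.13 to −0.26 between F and IvF and from −0.04 to −0.18 between S and IvS, and no member called there changed direction.

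Replicate numbers are shared between conditions. Over time in IvF all same-numbered libraries deviated together. Elsewhere an r over 0.1 was not reached in every pair, and the numbers were not taken to pair the libraries. It was reached in 2 of 4 pairs in F against S (r from 0.078 to 0.336). The same held in IvF against IvS at 1 h (−0.416 to 0.621) and at 24 h (−0.556 to 0.607). Over time in IvS it was reached in 0 of 4 pairs (−0.410 to −0.298). With a replicate block, 11 members were called for feeding, 3 and 0 in IvF against IvS at 1 h and 24 h, 6 over time in IvF, 6 in IvS, 17 between F and IvF, 16 between S and IvS, 4 for the interaction with ivermectin and 0 for that with time. Of all genes it called 30.8% for feeding and 7.20% and 1.34% in IvF against IvS. Over time it called 13.1% in IvF and 8.68% in IvS. F against IvF gave 62.4%, S against IvS 60.3%, and the interactions 14.3% with ivermectin and 1.84% with time. Depth limits the low members: both nas-2 rows, nas-16, nas-18 and nas-20 had 94 to 173 reads over all libraries.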
